A study of Macaca mulatta with 24 samples.

Results

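The matrix metalloproteinases MMP1, MMP2, MMP3, MMP7, MMP9, MMP12 and MMP14 and their tissue inhibitors TIMP1, TIMP2 and TIMP3 were followed in rhesus macaque jejunum after total-body irradiation (TBI). All probes that carried the symbol of any of these 10 genes in the normalized jejunum table were taken, which gave 10 of the 16094 gene symbols and 18 of the 43603 probes on the array. Of these, 8 were metalloproteinase probes (2 for MMP1 and 1 for each other gene) and 10 were TIMP probes (2 for TIMP1, 2 for TIMP2 and 6 for TIMP3). Tissue came from 24 young-adult male macaques, 1 array per animal, without pooling. The 4 control animals were sham-irradiated, received 0 Gy and are labelled day 4. The irradiated animals received a single uniform cobalt-60 gamma dose of 6.7 Gy or 7.4 Gy and were killed on day 4 (n = 4 per dose), day 7 (n = 4 per dose) or day 12 (n = 2 per dose). The day tags and sample titles give the last time as day 12, whereas the treatment text names day 21; day 12 is used here. Both doses at all times share the same 4 controls, so later groups were set against controls of another day. The samples were whole-thickness jejunum, in which a larger number of cells of a type and more RNA per cell cannot be told apart.

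Matrix metalloproteinases are zinc-dependent endopeptidases that cleave collagens, proteoglycans and other proteins of the extracellular matrix. Most are secreted as inactive proenzymes and are switched on by other proteases, among them plasmin and the membrane-bound MMP14. TIMPs bind the active site of the metalloproteinases and block it, and in the gut the balance of the 2 families is known for its part in mucosal ulceration and repair.

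Levels are on a log2 scale on which 0 is the 75th percentile of the corrected signals of an array, so 1 unit is a 2-fold difference, and a level is compared only with the same probe on other arrays. A probe was called changed at an adjusted p (limma) under 0.05 together with a change of 2-fold or more. The arrays had 39.4% to 87.7% of probes well above background. The detection limit of an array, the lowest signal well above background, was 7.03 to 31.8 on 4 of the 6 slides, but 130 to 277 on slide 5 and 40.6 to 83.0 on slide 4. Slide 5 held 1 array of the 6.7 Gy day 4 group and 1 of each 7.4 Gy group. The defining enterocyte genes FABP1 and ANPEP, the Paneth cell gene DEFA6 and the smooth muscle genes DES and ACTG2 were well above background on all 24 arrays.

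On day 4, MMP12, MMP2 and TIMP1 were higher than in control at both doses. MMP12 rose by 4.17 ± 0.41 (SE) on the log2 scale after 6.7 Gy and by 4.36 ± 0.59 after 7.4 Gy, MMP2 by 1.31 ± 0.18 and 1.52 ± 0.16, and the TIMP1 probe A_01_P015721 by 1.31 ± 0.26 and 1.38 ± 0.28 (n = 4 against 4 each). No member was called lower. At each dose 4 of the 17 tested member probes were called (MMP12, MMP2 and both of TIMP1), against 1.98% of all 28171 tested probes after 6.7 Gy and 2.6% after 7.4 Gy. Of these, MMP12 could be tested only because some irradiated groups had it well above background on all arrays. The difference from control was positive for 15 of the 17 probes at each dose, with a median of 0.59 at the lower and 0.62 at the higher dose, beside medians of -0.065 and -0.08 over all tested probes. No member passed the test against control on day 7 or day 12.

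**Figure D1:**
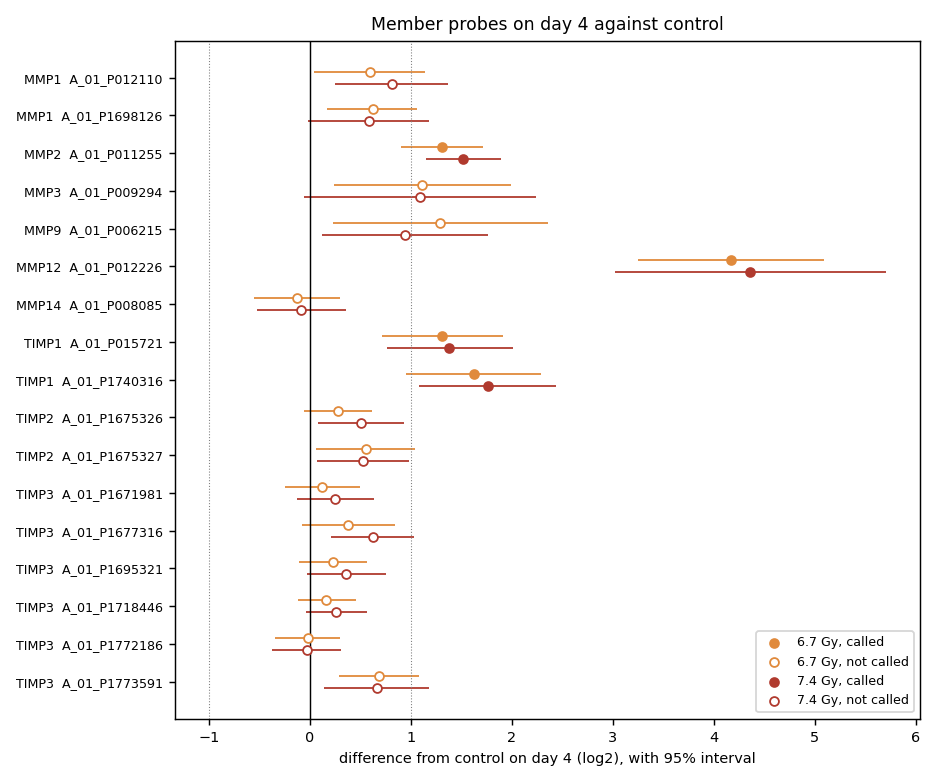
Difference from control on day 4 (log2, horizontal axis) for the 17 tested member probes (vertical axis), after 6.7 Gy (orange) and 7.4 Gy (red). Points are group differences (n = 4 against 4), bars are 95% intervals, filled points passed both the adjusted p and the 2-fold limit, and dotted lines mark 2-fold. MMP12 lies above 4 at both doses, MMP2 and both TIMP1 probes between 1.31 and 1.76, and MMP14 and the TIMP3 probe A_01_P1772186 just below 0.

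MMP12 (probe A_01_P012226), the macrophage elastase, which cleaves elastin, was the member with the largest difference. Its control levels were -4.12, -5.34, -5.16 and -4.79, the last of these not well above background. After 6.7 Gy the 4 animals of day 4 had -0.64, -1.26, 0.41 and -1.25, and after 7.4 Gy they had 0.31, 0.26, -0.086 and -2.45. Every irradiated day 4 animal was therefore above every control, and replicate 4 of the 7.4 Gy group lay below the other irradiated animals of that day. The rise corresponded to 18.0-fold (adjusted p = 0.0033) and 20.6-fold (adjusted p = 0.0101). A test needed 1 group with the probe well above background on all its arrays, which MMP12 met only in irradiated groups. When all values were first set to a common floor of -1.85, the highest detection limit of any array, the differences were 1.16 (adjusted p = 0.196) and 1.51 (adjusted p = 0.161), since all 4 controls lay under that floor.

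On day 7, MMP12 spread widely. The 6.7 Gy animals had -4.46, -3.02, -2.57 and -0.94 and the 7.4 Gy animals -4.12, -0.75, -3.01 and 0.15, of which -4.12 was not well above background. The day 12 animals had -2.08 and -2.95 at the lower dose, and -0.73 and -2.99 at the higher. The group means fell in the order 7.4 Gy day 4 (-0.49), 6.7 Gy day 4 (-0.69), 7.4 Gy day 12 (-1.86), 7.4 Gy day 7 (-1.93), 6.7 Gy day 12 (-2.51), 6.7 Gy day 7 (-2.75) and control (-4.85). The SDs of the day 7 groups were 1.45 and 1.98, larger than the steps between the neighbouring irradiated groups, and none of the comparisons of doses or of days was called for MMP12. Against control, MMP12 was the single member with an unadjusted p under 0.05 and a 2-fold difference on day 7 and day 12. It was 4.31-fold higher (adjusted p = 0.263) and 7.57-fold higher (adjusted p = 0.149) on day 7 after 6.7 and 7.4 Gy, and 5.06-fold (adjusted p = 0.308) and 7.96-fold higher (adjusted p = 0.39) on day 12, all in limma. With slide as a random block the day 7 difference after 7.4 Gy was 3.14 with an adjusted p of 0.0397. Without replicate 2 of the 7.4 Gy day 12 group, which leaves 1 animal assumed to vary like the controls, the difference was 4.12 with an adjusted p of 0.0177, and without replicate 1 it was 1.86 with an adjusted p of 0.933. With 1 array left out at a time, the day 7 difference after 7.4 Gy ran from 2.23 to 3.65.

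**Figure D2:**
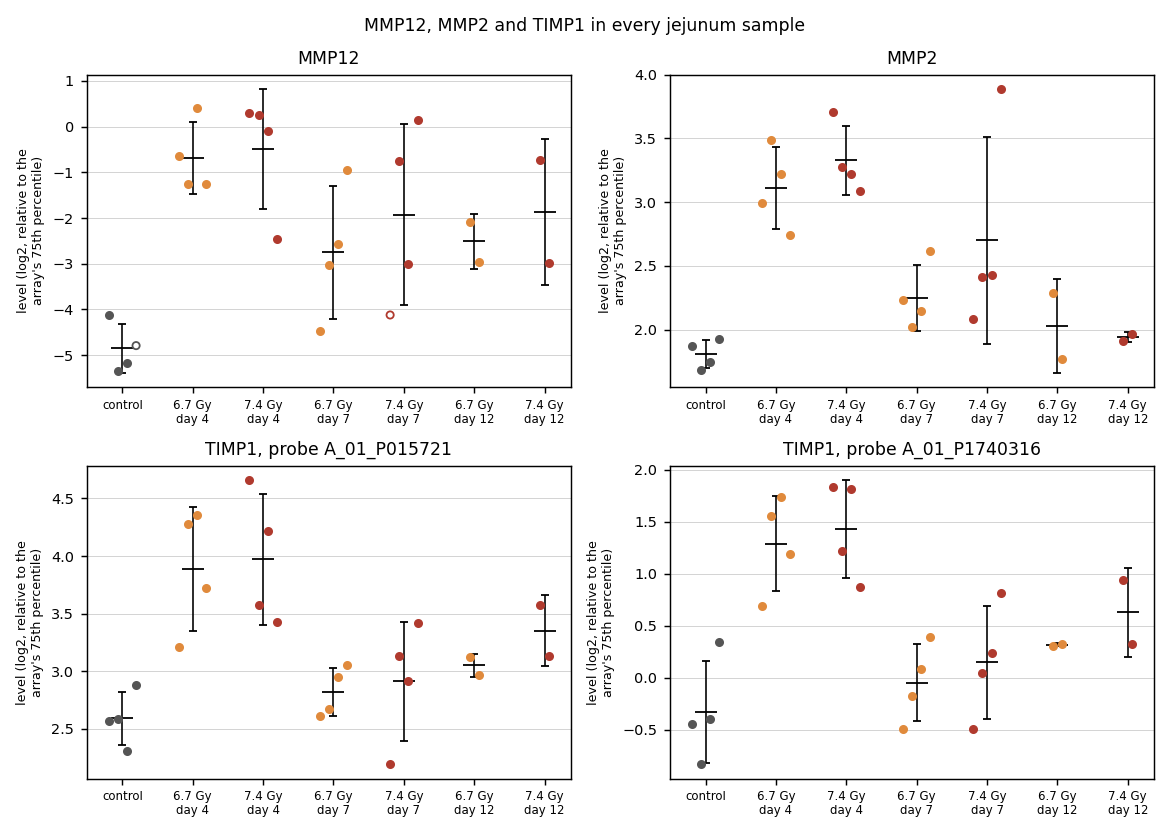
Levels (log2 relative to the array's 75th percentile, vertical axis) of MMP12, MMP2 and the 2 TIMP1 probes in each animal of the 7 groups (horizontal axis). Points are animals, open points are not well above background, and black bars are the mean ± SD. In all 4 panels the day 4 animals of both doses lie above every control animal, and on day 7 the TIMP1 levels overlap with control.

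The gelatinases are MMP2 and MMP9, which degrade denatured collagen and basement membrane collagen. MMP2 (probe A_01_P011255) is made mainly by stromal cells. Control levels were 1.87, 1.68, 1.75 and 1.93. The 6.7 Gy animals had 2.99, 3.49, 3.22 and 2.74 and the 7.4 Gy animals 3.71, 3.28, 3.22 and 3.09, with no overlap with control. These were rises of 2.47-fold (adjusted p = 0.0109) and 2.87-fold (adjusted p = 0.00442). By day 7 the levels after 6.7 Gy were 2.02 to 2.62, all still above the highest control, a difference of 0.45 ± 0.16 that was not called (adjusted p = 0.359). After 7.4 Gy they were 2.08, 2.41, 2.43 and 3.89 on day 7, where replicate 4 alone reached the day 4 levels (difference from control 0.89 ± 0.35, adjusted p = 0.257). On day 12 the 4 animals had levels between 1.77 and 2.29, and the differences from control were 0.23 and 0.13.

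MMP9 (probe A_01_P006215), the gelatinase of neutrophils and macrophages, was well above background on every array, and its control animals differed more among themselves, at 1.78, 3.00, 2.24 and 3.41. Of the day 4 animals, those given 6.7 Gy had 3.32, 4.16, 4.98 and 3.16 and those given 7.4 Gy 4.02, 3.15, 3.76 and 3.27, so that both groups overlapped with the highest control. Its differences from control of 1.29 ± 0.47 (adjusted p = 0.162) and 0.94 ± 0.36 (adjusted p = 0.154) were not called. On day 7 the levels were 2.18 to 2.94 after 6.7 Gy and 2.06 to 3.81 after 7.4 Gy, and on day 12 they lay between 2.03 and 3.42, within or near the range of the controls.

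MMP1, the interstitial collagenase, was measured by 2 probes. On the probe A_01_P012110 the control levels were 1.90 to 2.58, and the day 4 levels were 2.46 to 3.49 after 6.7 Gy and 2.57 to 3.55 after 7.4 Gy. The differences on day 4 were 0.59 and 0.81 on this probe and 0.62 and 0.58 on the probe A_01_P1698126, with adjusted p between 0.0901 and 0.216. On day 12 after 6.7 Gy the first probe had 3.06 and 2.28, and after 7.4 Gy 1.80 and 1.95, with a difference between doses of -0.79 ± 0.38 (adjusted p = 0.995) that was not called. MMP3 (probe A_01_P009294), the stromelysin that cleaves proteoglycans and activates other proenzymes, had control levels of -1.34, -2.31, -2.40 and -1.99. On day 4 the 6.7 Gy animals had -1.20, -1.32, 0.25 and -1.31, and the 7.4 Gy animals -1.87, -1.74, 0.50 and -0.56. In each day 4 group replicate 3 was the highest, these animals being on different slides, and the differences of 1.11 ± 0.39 (adjusted p = 0.145) and 1.09 ± 0.51 (adjusted p = 0.226) were not called.

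**Figure D3:**
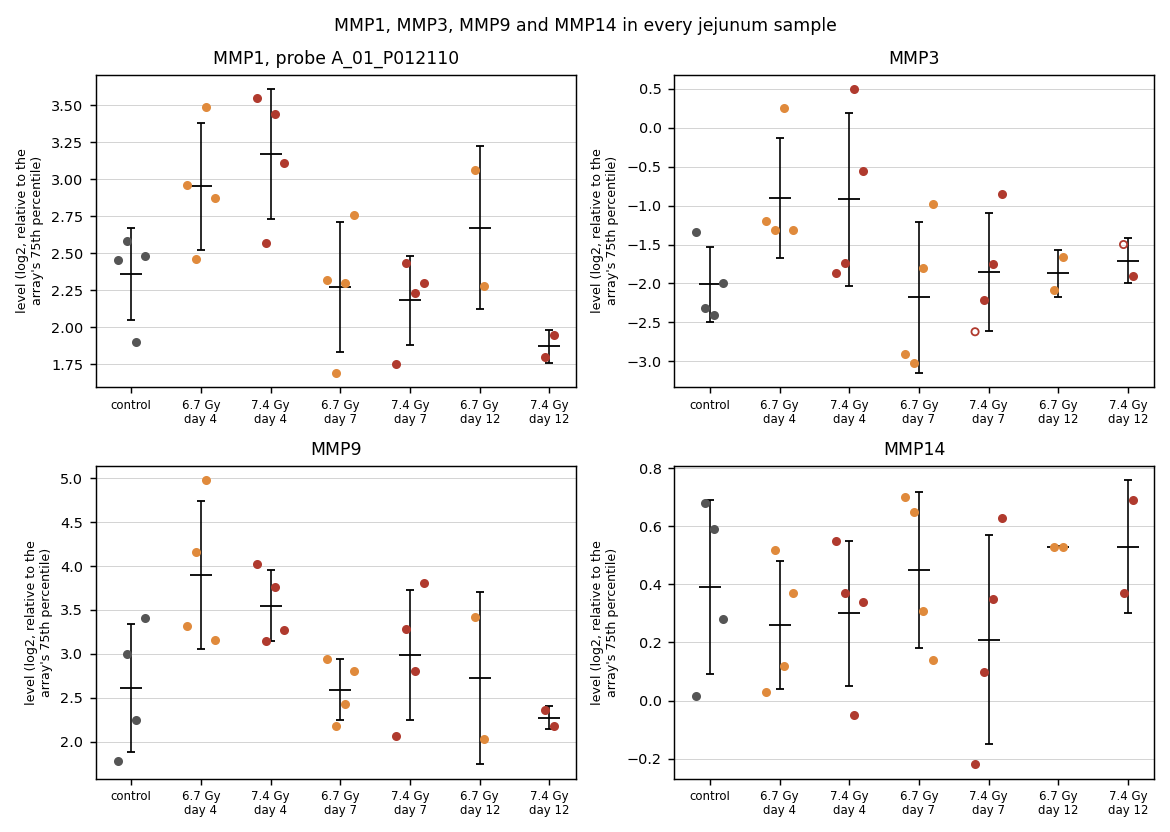
Levels (log2 relative to the array's 75th percentile, vertical axis) of MMP1, MMP3, MMP9 and MMP14 in each animal of the 7 groups (horizontal axis), with the mean ± SD in black and open points for values not well above background. MMP1, MMP3 and MMP9 have their highest group means on day 4, where some animals overlap with control for each gene. For MMP3 this holds at the higher dose only, and at the lower dose all day 4 animals lie above every control. The MMP14 group means stay between 0.21 and 0.53.

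MMP14 (probe A_01_P008085), the membrane-bound metalloproteinase that activates pro-MMP2 together with TIMP2, was the metalloproteinase with the smallest differences. Its group means lay between 0.21 and 0.53, and its differences from control ran from -0.18 on day 7 after 7.4 Gy to 0.14 on day 12 at both doses. On day 4 the differences were -0.13 (95% interval -0.56 to 0.30) after 6.7 Gy and -0.087 (95% interval -0.53 to 0.36) after 7.4 Gy, so that the upper bound of both intervals lay under a 2-fold rise. MMP7 (probe A_01_P018552), matrilysin, an epithelial enzyme that activates Paneth cell defensins in rodents, was not tested, because it was well above background on only 3 of 24 arrays. Those were 1 animal each of 6.7 Gy day 4 (-4.38), 7.4 Gy day 4 (-4.11) and 7.4 Gy day 7 (-5.32), and 0 of the 4 controls. On slide 2, which held the 6.7 Gy day 4 animal with -4.38, the control animal had -8.94. With 3 of 4 values in each day 4 group not well above background, no fold is given.

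TIMP1 is a soluble inhibitor of most secreted metalloproteinases. On the probe A_01_P015721 its control levels were 2.57, 2.58, 2.31 and 2.88. On day 4 they were 3.21, 4.28, 4.36 and 3.72 at the lower dose and 4.66, 3.57, 4.22 and 3.43 at the higher, all above the highest control. This was 2.47-fold (adjusted p = 0.0348) and 2.61-fold (adjusted p = 0.0292). The probe A_01_P1740316 moved the same way, with control levels of -0.83 to 0.34 and day 4 levels of 0.69 to 1.74 and 0.87 to 1.83, which was 3.07-fold (adjusted p = 0.0252) and 3.39-fold (adjusted p = 0.0182). By day 7 both probes overlapped with control at both doses, with differences of 0.23 to 0.48. On day 12 A_01_P015721 had 3.12 and 2.97 after 6.7 Gy and 3.57 and 3.13 after 7.4 Gy, all above the highest control of 2.88. These differences of 0.46 ± 0.20 (adjusted p = 0.718) and 0.77 ± 0.23 (adjusted p = 0.517) were not called. The probe A_01_P1740316 overlapped with control on that day at both doses, at 0.31 and 0.33 after 6.7 Gy and 0.94 and 0.33 after 7.4 Gy, against a highest control of 0.34.

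TIMP2 inhibits metalloproteinases and, in complex with MMP14, helps to activate pro-MMP2. Its 2 probes differed from control by 0.28 and 0.55 after 6.7 Gy and by 0.50 and 0.52 after 7.4 Gy on day 4, with adjusted p of 0.142 to 0.326, and none was called. TIMP3, the inhibitor bound to the extracellular matrix, was covered by 6 probes that did not move alike. On day 4, A_01_P1773591 differed from control by 0.68 ± 0.17 (adjusted p = 0.0674) and 0.66 ± 0.23 (adjusted p = 0.122), and A_01_P1677316 by 0.38 ± 0.20 and 0.62 ± 0.18 (adjusted p = 0.326 and 0.0829). The probe A_01_P1772186 stayed at -0.021 ± 0.14 and -0.033 ± 0.15, and the other 3 probes lay between 0.12 and 0.36. Which transcript each TIMP3 probe detects is not given in the sources used here.

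**Figure D4:**
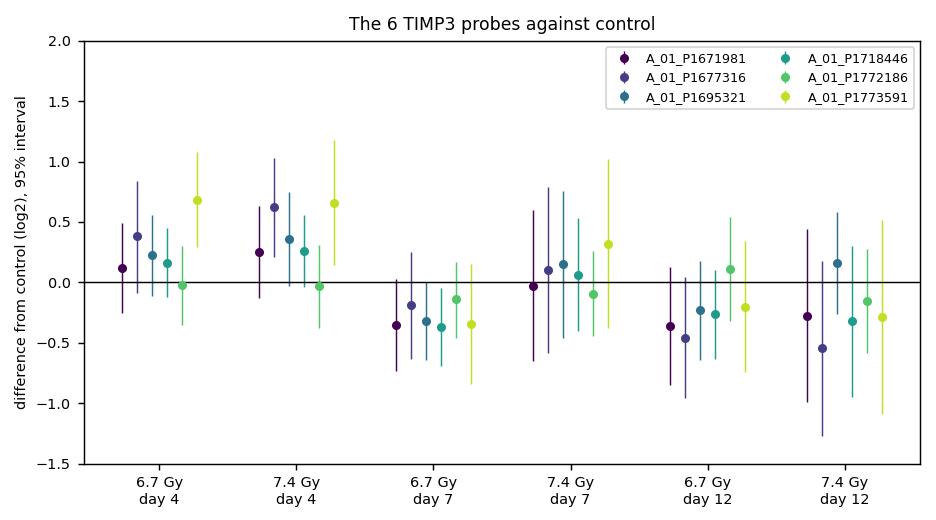
Difference from control (log2, vertical axis) of the 6 TIMP3 probes (colours) in the 6 irradiated groups (horizontal axis), with 95% intervals. On day 4 the probes range from -0.021 to 0.68 after 6.7 Gy and from -0.033 to 0.66 after 7.4 Gy, and on day 7 after 6.7 Gy all 6 lie below 0.

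In both comparisons of day 4 with control, MMP2 and MMP12 stayed called when each of the 8 arrays was left out in turn, whereas TIMP1 did not. After 6.7 Gy the count fell from 4 to 2 without control replicate 1, 2 or 3 or without 6.7 Gy replicate 2, 3 or 4, where the TIMP1 probes had adjusted p of 0.062 to 0.0957. After 7.4 Gy it fell to 2 without control replicate 1 or 2 or 7.4 Gy replicate 1, with TIMP1 adjusted p of 0.0507 to 0.0793. Among animals that shared a slide with a control, the difference within the slide was 4.54 and 4.09 for MMP12 and 1.35 and 1.07 for MMP2 after 6.7 Gy. After 7.4 Gy it was 5.47 and 5.05 for MMP12 and 1.96 and 1.36 for MMP2. For the TIMP1 probe A_01_P015721 it was 1.80, 1.14, 2.34 and 0.69 in these 4 pairs of animals. The 4 control arrays all lay at position 1 of their slides and the 7.4 Gy day 4 arrays at position 2. With position as a block, 1 member (MMP2) was called after 6.7 Gy and 0 after 7.4 Gy, with log2 differences after 7.4 Gy of 1.78 for MMP2 and 3.83 for MMP12. By the methods' t-test MMP2 and MMP12 passed at both doses and TIMP1 did not. Without the arrays of slides 4 and 5, which leaves 2 of the 7.4 Gy day 4 animals, the differences after 7.4 Gy were 1.63 for MMP2 and 3.81 for MMP12 and no member passed; after 6.7 Gy all 4 calls were kept.

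The comparison with control on later days asks how long the changes lasted. On day 7, 0 of 17 member probes were called after 6.7 Gy (0.0639% of all tested probes were called) and 0 after 7.4 Gy (0.288%). On day 12 it was again 0 after 6.7 Gy (0.0071%) and 0 after 7.4 Gy (0.00355%). With an unadjusted p under 0.05 and a 2-fold difference, MMP12 alone passed in each of the 4 comparisons, against 1.56%, 2.97%, 1.83% and 2.55% of all tested probes, and the methods' t-test called 0 members in each. The medians of the 17 member probes were -0.14 and 0.1 on day 7 and 0.14 and -0.15 on day 12, in the order 6.7 Gy and 7.4 Gy. On day 12 there were only 2 arrays per dose.

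The later days were also set directly against day 4 of the same dose. TIMP1 fell between day 4 and day 7 at both doses. After 6.7 Gy the drop was -1.07 ± 0.29 (adjusted p = 0.0395) and -1.34 ± 0.31 (adjusted p = 0.0189) on its 2 probes, and after 7.4 Gy -1.06 ± 0.29 (adjusted p = 0.0399) and -1.28 ± 0.31 (adjusted p = 0.022). The TIMP3 probe A_01_P1773591 fell by 1.03 after 6.7 Gy (adjusted p = 0.0444), from 1.60, 1.66, 1.57 and 1.34 on day 4 to 0.32, 0.21, 0.52 and 1.02 on day 7. MMP9 (-1.32 ± 0.43, adjusted p = 0.0858), MMP3 (-1.28 ± 0.53, adjusted p = 0.167) and MMP12 (-2.06 ± 0.85, adjusted p = 0.169) missed the adjusted threshold over the same interval after 6.7 Gy. This made 3 of 17 member probes called after 6.7 Gy (both of TIMP1 and 1 of TIMP3), against 1.55% of all tested probes. After 7.4 Gy 2 were called (both of TIMP1), against 1.64%. Each of these probes was lower on day 7. MMP1 after 7.4 Gy passed the adjusted p on both probes (0.0374 and 0.0481) but with differences of -0.99 and -0.87 stayed inside the 2-fold limit.

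Between day 4 and day 12 after 7.4 Gy, MMP2 fell by 1.39 (SE 0.34, adjusted p = 0.0315), and MMP1 fell by 1.29 (adjusted p = 0.0342) and by 1.18 (adjusted p = 0.0367) on its 2 probes. Thus 3 of 17 member probes, those of MMP2 and MMP1, were called, against 2.42% of all tested probes. The 2 animals of day 12 had MMP2 levels of 1.91 and 1.97, below all 4 animals of day 4. After 6.7 Gy, 0 members were called between day 4 and day 12, against 0.951% of all tested probes. There 2 members had an unadjusted p under 0.05 and a 2-fold difference, against 4.82% of all probes; these were MMP2 (-1.08 ± 0.34, adjusted p = 0.107) and MMP9 (-1.18 ± 0.53, adjusted p = 0.251).

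These declines also depended on single animals. After 6.7 Gy the count for day 7 fell from 3 to 0 without day 4 replicate 2 or 3 or day 7 replicate 1 or 2, and to 1 without day 4 replicate 4 or day 7 replicate 3. After 7.4 Gy it fell from 2 to 0 without day 4 replicate 1 or 3 or day 7 replicate 1 or 2, fell to 1 without day 7 replicate 3, and rose to 4 without day 4 replicate 2 or day 7 replicate 4. For day 12 after 7.4 Gy it fell from 3 to 0 without day 4 replicate 1 or day 12 replicate 1 and to 1 without day 4 replicate 3. Without day 12 replicate 2 it was again 3, but these were 3 TIMP3 probes. Leaving out a day 12 replicate leaves 1 animal on that day, whose spread is assumed to be that of the other groups.

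The 2 doses were compared on each day. On day 4, 0 members were called (0% of all tested probes), on day 7 0 (0%) and on day 12 0 (0%). At an unadjusted p under 0.05 with a 2-fold difference the count of members was also 0 on each day, against 0.277%, 0.735% and 1.88% of all probes. On day 4 the difference of 7.4 Gy from 6.7 Gy was 0.20 for MMP12 (95% interval -1.58 to 1.97), 0.21 for MMP2 (-0.37 to 0.80) and 0.078 for the TIMP1 probe A_01_P015721 (-0.52 to 0.68).

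Genes that act with the metalloproteinases were counted from lists of known partners. Of 13 tested probes for inhibitors and partners (11 genes), 5 were called higher on day 4 after 6.7 Gy and 6 after 7.4 Gy, and 0 lower, against 1.98% and 2.6% of all tested probes. CD44, a cell-surface docking site for MMP9, rose by 1.49 and 1.70 on the probe A_01_P1773296. The CD44 probe A_01_P1679516 was called only after 7.4 Gy (1.26). RECK, a membrane-anchored inhibitor, rose by 1.21 and 1.12, and A2M, which traps proteases of all classes, by 1.57 and 1.59. LCN2, which forms a complex with MMP9 and was picked out after its values were seen, rose by 3.53 ± 0.67 and 3.10 ± 0.59. The median of the list was 0.93 and 1.00, beside -0.065 and -0.08 over all probes.

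In the plasminogen and convertase list, which covers the proteases that activate proenzymes, 3 of 10 probes were called higher after 6.7 Gy and 4 after 7.4 Gy, beside the same 1.98% and 2.6% of all tested probes. PLAU, the urokinase that makes plasmin, rose by 1.47 and 1.71 on the probe A_01_P018146. The PLAU probe A_01_P1680616, well above background on 3 of 4 control arrays, was called only after 7.4 Gy (2.01). The inhibitor of PLAU, SERPINE2, rose by 1.42 after 6.7 Gy and 1.33 after 7.4 Gy on the probe A_01_P008763. On the probe A_01_P1678106 it rose by 1.69 after 7.4 Gy and was not called after 6.7 Gy. Among inducers and regulators of these genes, 1 of 21 probes was called after 6.7 Gy and 2 after 7.4 Gy (4.76% and 9.52%, against 1.98% and 2.6% of all tested probes). EGR1, an immediate-early transcription factor, rose by 2.31 and 1.86, and TGFB3 by 1.20 after 7.4 Gy. Values not well above background entered both. EGR1 was well above it on 3 of 4 arrays in each of these groups, and TGFB3 on 2 of 4 irradiated and 3 of 4 control arrays. Of the ADAM and ADAMTS proteases, 0 of 22 probes were called after 6.7 Gy (0 also at an unadjusted p in limma) and 1 after 7.4 Gy, ADAMTS5 with 1.13 ± 0.21 (well above background on 3 of 4 irradiated arrays). The other MMP genes had probes for 12 of 16 names, but only 6 probes for 4 genes could be tested, and 0 were called in any of the 13 comparisons; at an unadjusted p under 0.05 and 2-fold, 1 passed in limma, on day 7 after 7.4 Gy.

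Of 38 probes for matrix substrates (21 genes), 6 were called higher on day 4 after 6.7 Gy (4 genes) and 12 after 7.4 Gy (9 genes), and 0 lower, against 1.98% and 2.6% of all tested probes. Of the 12 probes, 6 (3 of DCN and those of LUM, COL1A2 and COL3A1) also belong to the stromal markers given below. VCAN, the proteoglycan versican, rose by 1.37 and 1.60 on the probe A_01_P009515. The VCAN probe A_01_P1773766, well above background on 3 of 4 control arrays, was called only after 6.7 Gy (2.17). After 6.7 Gy COL6A3 rose by 1.37 and FN1, fibronectin, by 1.03. After 7.4 Gy FBN1, fibrillin, rose by 1.05 and DCN, decorin, by 1.25. From day 4 to day 7 after 6.7 Gy, 4 substrate probes (FBN1, VCAN and 2 of FN1), 3 partner probes (CD44, A2M and THBS1) and SERPINE2 were called lower, as were ADAMTS1 (-1.03) and EGR1 (-1.76, well above background on 3 of 4 day 4 arrays), with none called higher in these lists, against 1.55% of all tested probes. Over the same interval after 7.4 Gy, 2 probes of SERPINE2, ADAMTS1 (-1.21) and JUN (-1.03) were called lower, against 1.64%. Between day 4 and day 12 after 7.4 Gy, CD44 (-1.24), RECK (-1.08), A2M (-1.49), PLAU (-1.80), ADAMTS1 (-1.43), VCAN (-1.39) and 3 FN1 probes (-1.80, -1.43 and -1.37) were called lower, against 2.42% of all tested probes. The FN1 probe with -1.80 was well above background on 1 of 2 day 12 and 3 of 4 day 4 arrays, and RECK on 1 of 2 day 12 arrays. After 6.7 Gy, CD44 (-1.29), RECK (-1), VCAN (-1.36) and 1 FN1 probe (-1.5) were called lower over this interval, against 0.951%. Against control, 0 probes of the 6 lists were called in limma on day 7 or day 12 at either dose, beside 0.00355% to 0.288% of all tested probes. There 0 to 2 probes per list had an unadjusted p under 0.05 and a 2-fold difference, against 1.56% to 2.97% of all tested probes.

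Markers of other cell types were set beside these values. Of 11 macrophage genes, 7 were on the array, and their mean log2 level was -0.08 to 0.091 in control, 0.38 to 0.63 on day 4 after 6.7 Gy and 0.44 to 0.86 after 7.4 Gy. It was -0.46 to -0.19 and -0.36 to 0.33 on day 7, and 0.023 to 0.24 and -0.045 to 0.59 on day 12. Of 8 probes tested on day 4, 0 were called after 6.7 Gy (0 also unadjusted) and 1 after 7.4 Gy, CD14 with 1.25 ± 0.24. The scavenger receptor MARCO was well above background on 5 of 24 arrays. Stromal genes, all 9 on the array, had mean levels of 0.91 to 1.29 in control, 1.33 to 1.68 on day 4 after 6.7 Gy and 1.58 to 2.35 after 7.4 Gy, with 0 and 6 of 16 probes called. On day 7 they had 0.54 to 1.26 and 0.78 to 2.00, and on day 12 0.42 to 1.24 and 0.70 to 1.55. The calls in these lists, and in the enterocyte list that follows, stand beside 1.98% and 2.6% of all tested probes. The group means of MMP12, MMP2 and TIMP1 were highest on day 4 at both doses, as were those of the macrophage, stromal, smooth muscle, endothelial and T cell lists. The neutrophil list was highest on day 4 after 6.7 Gy (mean -3.28). Its mean on day 4 after 7.4 Gy (-3.83) lay below that on day 12 after 7.4 Gy (-3.51). Between day 4 and day 12 after 7.4 Gy, CSF1R (-1.14), CD14 (-1.47), KDR (-1.95, well above background on 1 of 2 day 12 arrays) and VWF (-1.40) were called lower, against 2.42% of all tested probes. Between day 4 and day 7 after 7.4 Gy, CSF1R (-1.01), ANPEP (-1.10) and 2 probes each of KDR and ACTA2 were called lower, against 1.64%. After 6.7 Gy no marker probe was called in either interval. The part of the cell types in the members' changes was not tested.

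Of 6 tested probes for the 5 enterocyte genes on the array, 2 were called lower on day 4 after 6.7 Gy and 1 after 7.4 Gy, and 0 higher. The mean level of the list was 4.14 to 4.71 in control, 3.38 to 3.87 after 6.7 Gy and 3.49 to 4.18 after 7.4 Gy, where it overlapped with control. FABP1, the liver-type fatty acid binding protein, fell by 1.56 and by 1.23, and VIL1, villin, fell by 1.58 after 6.7 Gy. Of 8 neutrophil genes, 4 were on the array, and MPO, the defining granule enzyme, was well above background on 2 of 24 arrays. The neutrophil list ran from -4.53 to -3.94 in control, from -3.72 to -2.79 on day 4 after 6.7 Gy and from -4.21 to -3.13 after 7.4 Gy (on the array with -3.13, 0 of the 4 genes were well above background), with 0 of 2 tested probes called at either dose (0 unadjusted in limma). Smooth muscle genes had mean levels of 6.18 to 6.68 in control and 6.39 to 7.21 on day 4. Paneth cell, endothelial, B cell and T cell lists had 0 probes called against control on day 4.

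**Figure D5:**
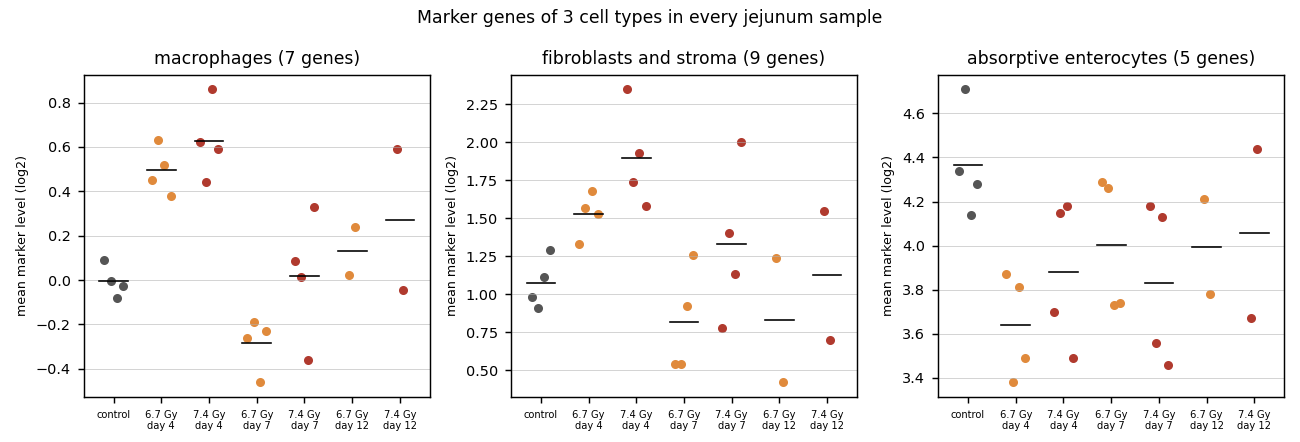
Mean log2 level of marker genes (vertical axis) for macrophages (7 genes), stroma (9 genes) and absorptive enterocytes (5 genes) in each animal of the 7 groups (horizontal axis), with the group mean as a line. On day 4 every irradiated animal lies above all controls for macrophage and stromal genes, and the group means of enterocyte genes are below control.

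Over the 24 arrays, the levels of the 9 tested members (without MMP7) correlated positively in all pairs but some with MMP14, taking for each gene the probe with the highest mean level. MMP12 correlated with TIMP1 at r = 0.814 and with MMP2 at 0.796, and MMP2 with TIMP1 at 0.783, with MMP9 at 0.775 and with TIMP3 at 0.681. Among the pairs of the other members r was between 0.27 (MMP12 with TIMP3) and 0.814. MMP14 had r between -0.411 (with MMP3) and 0.187 (with TIMP2). The genes most like MMP2 among 16373 compared probes were PLTP (r = 0.952), POSTN (0.94), COL12A1 (0.929), LOC702129 (0.925) and LOC709782 (0.92). Those most like MMP12 were LOC722136 (0.913), LOC717346 (0.868), CAMSAP1 (0.864), ALDH1A2 (0.86) and C7 (0.858). Those most like TIMP1 were RIN1 (0.902), CTRB1 (0.901), IFITM3 (0.891), CCND1 (0.888) and DAB2 (0.887). The points of each correlation share arrays, slides and treatment groups, so these values describe a common pattern over the 24 samples. After each group's mean was subtracted, the correlation was 0.854 for PLTP with MMP2, 0.823 for LOC722136 with MMP12 and 0.729 for RIN1 with TIMP1.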

How the data were processed

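The 24 samples were hybridized to 1-color Agilent rhesus macaque arrays, on 6 slides scanned on 2 days. Per the file headers, the authors extracted the deposited spot intensities with Agilent Feature Extraction 11.0.1.1 on a grid annotated for rheMac2. A normalized log2 table from GeneSpring, deposited alongside, named the genes and served as an alternative. For each probe it holds the level defined next, centred on its median over arrays (largest deviation 0.00176). The level was log2 of the ratio of the processed signal to the 75th percentile of such signals on that array. Spots of the same probe were averaged, control spots were left out, and 1 member value was a non-uniform spot. A test needed 1 group whose arrays all had the probe well above background (28171 probes, or 64.6%). It was run with lmFit and eBayes of limma 3.58.1 in R 4.3.3. Comparisons with control used the arrays of the 2 groups, and those of doses and days 1 model of all 24 arrays, with Benjamini-Hochberg adjustment over all tested probes. The number of arrays limits the precision. The scripts were tested on simulated data. The normexp alternative (offset 50) used the median spot signal, because the scanner files used here hold no mean signal. Alternatives also covered scaling, filters, floor, slide, scan day, position, replicate number, the methods' t-test and left-out arrays; those without slide 5 and without slides 4 and 5 were chosen after seeing the data. The members and gene lists were chosen with earlier results of these data known. Every member probe is described; from each list genes are named among the 3 called with the smallest p (some are not reported here), and for each member called against control the 5 genes with the highest Pearson correlation. The table of raw values that the authors deposited was not used. No probe sequences or genome coordinates were used here.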

Additional observations from a re-analysis of the deposited data

Results flagged for a closer look

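Among 85 sets of 4 animals (17 member probes in 5 groups), 5 held an animal far from the other 3, where chance flags about 1 in 20. MMP3 in 6.7 Gy day 4 replicate 3 was at 0.25, with the others at -1.32 to -1.20. The same animal had an MMP1 level of 3.10 on probe A_01_P1698126, with the others at 2.48 to 2.55. MMP12 in 7.4 Gy day 4 replicate 4 was at -2.45, with the others at -0.086 to 0.31. TIMP2 (A_01_P1675327) in 7.4 Gy day 4 replicate 2 was at -0.56, with the others at 0.14 to 0.26. MMP1 (A_01_P1698126) in 6.7 Gy day 7 replicate 2 was at 1.31, with the others at 2.05 to 2.20.

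The difference from control changed between days, by a test of the days themselves, for 8 probe comparisons. From day 4 to day 7, TIMP1 changed by -1.07 and -1.34 after 6.7 Gy and by -1.06 and -1.28 after 7.4 Gy, and the TIMP3 probe A_01_P1773591 by -1.03 after 6.7 Gy. From day 4 to day 12 after 7.4 Gy, MMP2 changed by -1.39 and MMP1 by -1.29 and -1.18.

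MMP7, outside all comparisons because it was too dim, was well above background on 3 of 20 irradiated arrays and on 0 of 4 control arrays.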

How the results depend on the processing

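Each count of called member probes was recomputed under the alternatives that apply to its comparison, as were the log2 changes of each member probe called in any of them, and none of the values obtained changed direction. With normexp background, the authors' log2 table, another percentile, quantile normalization, the stricter filter, eBayes with trend and robust, and all arrays in 1 model, every count obtained stayed within 1.5 times its reported value. Under the stricter filter MMP12 was not tested against control, and 3 member probes were called on day 4 at each dose. On day 4 after 6.7 Gy the count of 4 became 1 with no filter, 1 with the common floor, 1 with position as a block, 1 with the replicate block and 2 by the methods' t-test. On day 4 after 7.4 Gy it became 1 with no filter, 2 with the common floor, 0 with position, 2 with the replicate block, 2 by the t-test and 0 without slides 4 and 5. For day 7 against control after 7.4 Gy it became 1 with slide as a random block. For day 7 against day 4 after 6.7 Gy the count of 3 became 1 with no filter, with the floor and with the replicate block, and 0 by the t-test or with only the 2 groups. After 7.4 Gy the count of 2 became 1 with the floor and with the replicate block, and 0 with no filter, only the 2 groups, slide as a fixed block, the t-test, without slide 5 and without slides 4 and 5. For day 12 against day 4 after 7.4 Gy the count of 3 became 0 with no filter, only the 2 groups, slide or scan day as a fixed block, the replicate block, the t-test, and without slide 5 or slides 4 and 5. The no-filter setting tests 43603 probes instead of 28171; the cause of the other changes was not tested.

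Leaving out 1 array at a time gave 2 to 4 calls for day 4 against control at both doses, 0 to 1 for day 12 against control after 7.4 Gy, 0 to 3 for day 7 and 0 to 4 for day 7 against day 4 after 6.7 and 7.4 Gy, and 0 to 3 for day 12 against day 4 after 7.4 Gy. The other counts stayed at 0.

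Replicate numbers do not pair the animals. Same-numbered arrays had correlations of their deviations from the group means between -0.165 and 0.265, with at least 1 pair under 0.1 in every comparison. Under the replicate block, all tested probes called on day 4 fell from 559 to 93 and from 733 to 129. MMP12 kept its call on day 4 at both doses (adjusted p = 0.0298 and 0.0411) and MMP2 after 7.4 Gy (0.0411), not after 6.7 Gy (0.0732).

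The fit with position gave values in 5 of the 13 comparisons. Some values not well above background entered for MMP12 (control and 7.4 Gy day 7), MMP3 (7.4 Gy day 7 and day 12) and the TIMP3 probe A_01_P1718446 (7.4 Gy day 12), and MMP7 was not tested.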
